A study of Mus musculus with 1504 samples.

Results

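Smooth muscle cells of the mouse lung were taken from single-cell read counts by a rule on 8 genes. Each column of the count table is 1 sorted well and is treated here as 1 cell. A column of the sets Mural1 or Mural2 was a member when the smooth muscle myosin gene Myh11 stood at 500 CPM (reads of the gene per 1000000 reads of the column) or more and the calponin gene Cnn1 at 50 CPM or more. It also had to hold fewer than 2 of the pericyte genes Cox4i2, Higd1b, Trpc6 and Lamc3 at 20 CPM or more, and less than 10000 CPM of the epithelial genes Sftpc and Scgb1a1 together. The rule found 62 of the 361 columns of these sets (17.2%, exact binomial 95% interval 13.4 to 21.5) and of 1504 columns in all. Of the 128 columns of Mural1, 16 were members (12.5%, 7.32 to 19.5), and of the 233 columns of Mural2, 46 were (19.7%, 14.8 to 25.4).

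The study sorted single cells of lungs of adult C57BL/6 mice by fluorescent reporter into 384-well plates and read whole polyadenylated transcripts by SMART-seq2. Mice were 12 to 15 weeks old according to the labels of the samples, whereas the design text has 10 to 19 weeks. Reporter mice carried eGFP from a Cldn5 BAC transgene (769 cells), eGFP from a Pdgfrb BAC transgene (374 cells), or Pdgfrb(BAC)eGFP with NG2dsRed, a red reporter named for the product of Cspg4 (361 cells). A BAC reporter marks any cell in which its regulatory DNA is active, so the sort set which cells could be found. Mural1 and Mural2 hold 361 columns together, as many as the labels give for Pdgfrb(BAC)eGFP with NG2dsRed, but no column name gives a reporter. The labels name no animal, so every group of cells below is 1 sample, no p-value was computed, and all values are descriptions of these cells. A gene is called higher or lower by size alone: at least 4-fold apart, at least 50 CPM on its higher side, and a read in at least 25% of the cells of that side after thinning each cell to 50000 reads. Intervals after a fold are exact 95% counting intervals of the summed reads, which carry no molecular identifiers, so they cover counting error only.

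Smooth muscle cells form the contractile layer of the walls of lung arteries, veins and airways. Phosphorylation of the myosin light chain, driven by calcium and calmodulin, lets myosin pull on actin filaments that are anchored in dense bodies and in dense plaques at the membrane. Serum response factor with its coactivator myocardin switches on many of the contractile genes through a sequence element named the CArG box. Pericytes, the mural cells of capillaries, share a part of this gene set and signal through Pdgfrb and Notch3.

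The members had between 112169 and 481685 reads, with a median of 270937, and between 1470 and 7637 genes with a read, with a median of 4012. The pericytes compared with them below had lower medians, of 156809 reads and 2904 genes, and all other cells medians of 254437 and 3900. Numbers of cells at 20 CPM and medians of CPM are from unthinned reads, and the part of depth in them was not tested. The lowest member stood at 541 CPM of Myh11 and at 288 CPM of Cnn1. Only 2 columns failed the Myh11 limit alone, at 90.5 CPM or less, and 1 failed the Cnn1 limit alone, with 3652 CPM of Myh11 and no Cnn1 read. Another 3 columns, all in Mural2, failed the pericyte limit alone, with Myh11 between 3045 and 10938 CPM and 2 of the pericyte genes each. The epithelial limit alone kept out 8 columns, at 21237 to 151060 CPM of Sftpc and Scgb1a1. Of the members, 27 held none of the 4 pericyte genes at 20 CPM and 35 held 1. Applied to the other sets, the rule met 1 of 374 columns of Mural3 and none of the 243, 275 and 251 columns of EC1, EC2 and EC3, which allows shares of up to 1.23%, 1.09% and 1.20%.

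Acta2 and Tagln, markers of smooth muscle that the rule did not use, were read in every member, as were the rule genes Myh11 and Cnn1. The 11 smooth muscle markers summed to between 16787 and 105968 CPM per member, with a median of 63524. Myh11 and Cnn1 are among the 11, so the rule set a part of this sum. Reads of genes listed as markers of other cells were also found. Summed over 10 genes, fibroblast markers ran from 187 to 8510 CPM per member with a median of 1386, and 40 members reached 1000 CPM. The median of this sum was 47115 CPM in fibroblasts and 1341 CPM in pericytes. Against pericytes, none of the 10 genes was higher, 2 were lower and 8 did not pass. Col1a1 and Col1a2 were among these 8 (log2 -0.36 and -0.34). Summed epithelial markers (10 genes) ran from 0 to 11206 with a median of 170, leukocyte markers (8 genes) from 0 to 9834 with a median of 10.7, and endothelial markers (8 genes) from 0 to 1212 with a median of 3.27. Summed pericyte markers (10 genes) ran from 454 to 3472 with a median of 1706, and 52 members reached 1000 CPM. The rule itself capped genes of the pericyte and epithelial lists. Cartilage (10 genes), mesothelial (5 genes) and Schwann or nerve markers (5 genes) had a median of 0, and Hapln1, Sox10 and S100b had no read in any member. Reads of the reporter eGFP ran from 62.4 to 2215 CPM with a median of 363, against a median of 3125 in pericytes.

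The 62 members were set against the 219 other columns of Mural1 and Mural2 below the same epithelial limit, and then against the 77 of those that held at least 2 of the 4 pericyte genes and are called pericytes below. The rest were 84 fibroblasts, 41 cells with cartilage genes and 17 that met no marker rule. Mural1 gave 27 pericytes, 37 fibroblasts, 37 cells with cartilage genes and 9 that met no marker rule. In Mural2 these numbers were 50, 47, 4 and 8. Values within a set thus compare its members with a different mixture of cells in each set. The part of that mixture in them was not tested. Of 21947 genes, 264 (1.2%) were higher in smooth muscle cells than in the other cells and 348 (1.59%) were lower, 612 (2.79%) in either direction. Against pericytes 352 (1.6%) were higher and 407 (1.85%) lower, 759 (3.46%) in either direction. Both comparisons use the same smooth muscle cells, and the pericytes are among the other cells. The median log2 difference over all genes was -0.15 against the other cells and -0.35 against pericytes. With TMM scaling the second median shifted by 0.34, and 471 genes were then higher than in pericytes and 330 lower. Median-ratio scaling shifted it by 0.36, with 475 genes higher and 328 lower.

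The list of the contractile apparatus holds the rule genes Myh11 and Cnn1, whose calls the choice of cells set. Of its 20 genes 12, with these 2 among them, were higher than in the other cells, none was lower and 8 did not pass, with a median log2 difference of 2.82. Against pericytes 12 were higher, Myh11 and Cnn1 again among them, and none lower, with a median of 2.62. Acta2, the smooth muscle α-actin gene (chromosome 19, 34241090 to 34255590 in GRCm38), ran from 10112 CPM in the lowest member through a median of 33638 to 66896. Only 4 of the 219 other cells, all pericytes, reached the lowest member. Among them were the 3 columns that failed the pericyte limit alone, at 22394 CPM or more. Tagln, which encodes the actin-binding protein transgelin, ran from 2903 through 7334 to 18270 CPM, and 6 other cells reached its lowest value. Summed over cells, Acta2 stood at 35228 against 754 CPM, 46.7-fold (46.3 to 47.2), and Tagln at 7309 against 183 CPM, 40.0-fold (39.2 to 40.7). Myl9, the gene of the regulatory myosin light chain, ran from 3873 through 9575 to 24001 CPM (24.8-fold, 24.4 to 25.1) and Tpm2, a tropomyosin gene, from 1894 through 4569 to 9986 CPM (26.2-fold, 25.6 to 26.7). For both, 5 or fewer of the other cells reached the lowest member.

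**Figure D1:**
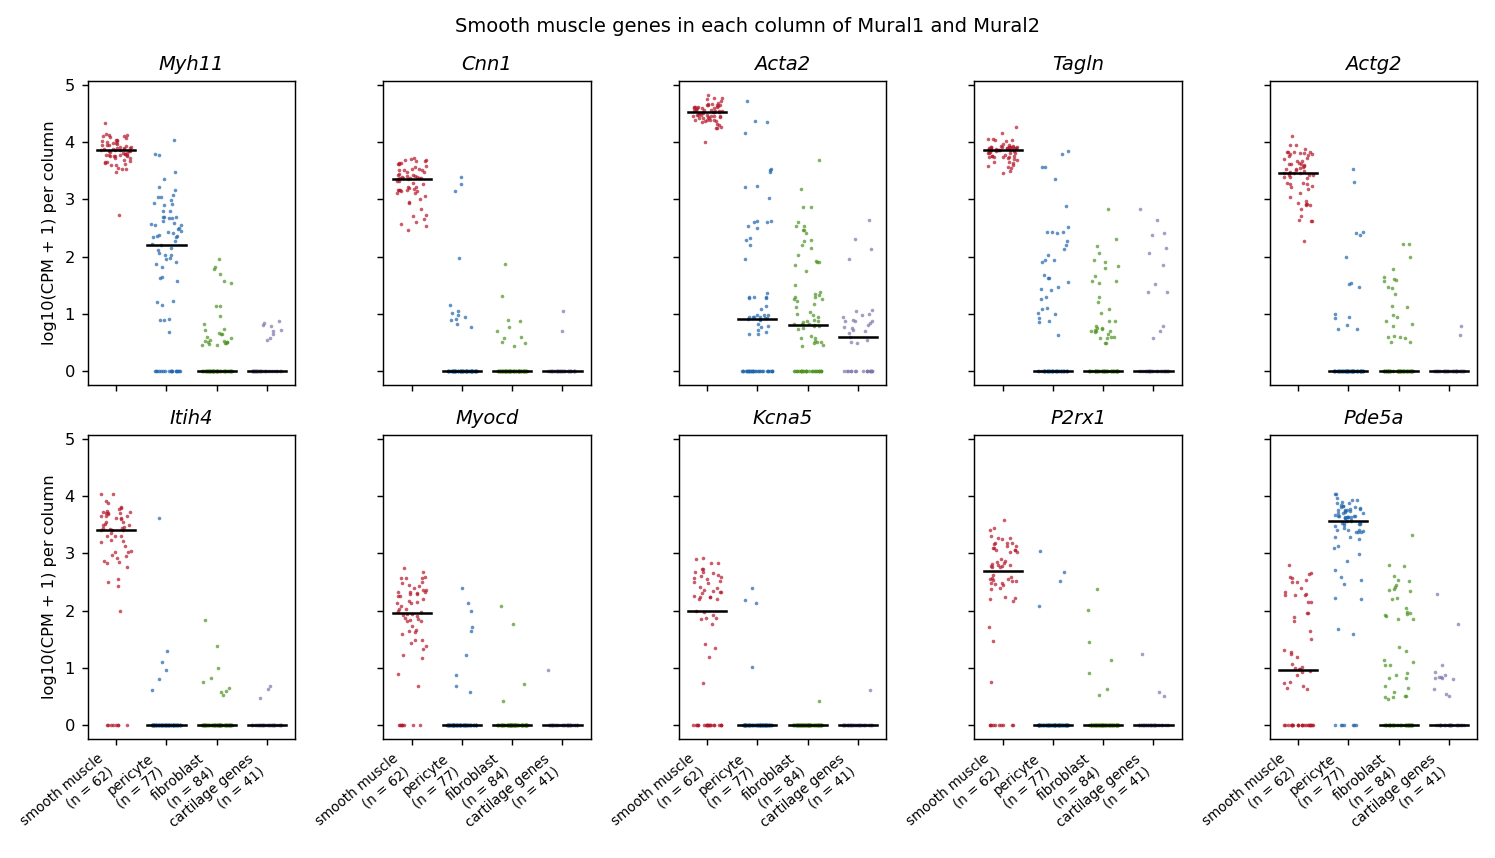
Levels of 10 genes in single columns of Mural1 and Mural2, as log10(CPM + 1) on a log scale. Each point is 1 column, bars mark the median of a group, and n is the number of columns. Acta2 and Tagln lie above nearly all columns of the other groups, while Pde5a lies near 0 in most smooth muscle columns and at a median of 3647 CPM in pericytes.

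The remaining contractile genes followed with wider spread. Actg2, the γ-actin gene of visceral smooth muscle, ran from 183 through 2932 to 12591 CPM and was 88.3-fold higher than in the other cells (84.7 to 92.0). Lmod1, which encodes the actin nucleator leiomodin, ran from 162 through 763 to 1706 CPM and was 28.1-fold higher (26.7 to 29.5). Mylk, the myosin light chain kinase gene, was 5.89-fold higher at 1769 against 300.5 CPM, and Smtn, smoothelin, 4.41-fold higher at 887 against 201 CPM. Neither passed against pericytes, where Mylk stood at 746 CPM and Smtn at 411 CPM. By the mean of single columns Smtn did not pass against the other cells either (log2 1.91, against 2.14 on summed reads). The rule's own genes stood at 7475 against 198 CPM for Myh11 and 2392 against 32.1 CPM for Cnn1, which is how the cells were chosen. Pln, phospholamban, at 29.8 against 16.6 CPM, was the only gene of the 11 smooth muscle markers that did not pass against the other cells.

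The size of these folds differed by set, each with its own mixture of other cells, and depended on a few cells. Within Mural1 alone and within Mural2 alone the log2 differences from the other cells were 7.43 and 4.71 for Acta2, 5.86 and 4.88 for Tagln, 9.89 and 5.59 for Actg2, and 5.19 and 4.41 for Lmod1. The corresponding values were 3.12 and 2.14 for Mylk, 7.21 and 4.45 for Myh11, and 14.00 and 5.36 for Cnn1. The 3 pericytes of Mural2 that passed the Myh11 and Cnn1 limits held most of the Acta2 reads of all pericytes. They stood at 22394, 23245 and 51877 CPM, and the other 74 pericytes together at 552 CPM. Against pericytes the log2 difference of Acta2 was 3.79, and 6.00 without those 3. It moved from 3.91 to 5.77 for Tagln, from 4.58 to 8.17 for Actg2 and from 3.34 to 4.09 for Lmod1. For the rule genes it moved from 3.27 to 4.29 (Myh11) and from 4.19 to 10.36 (Cnn1). Limits on these 2 genes picked out both the members and those 3 cells. The choice of cells thus set the direction of these 2 moves and of the Myh11 and Cnn1 values within the sets.

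Beside their contractile genes, these 3 cells held some pericyte genes at smooth muscle levels. In them Pde5a, the cGMP phosphodiesterase gene, stood at 0, 0 and 46.4 CPM, against a median of 3647 in all pericytes. Pdgfrb stood between 729 and 1489 CPM, near the members' median of 602 and below the pericyte median of 5684. Without these 3 cells 426 genes were higher than in pericytes and 448 lower, against 352 and 407 with them. All 83 named genes past the size rule against pericytes still passed it.

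Promoter sequences of contractile genes are shown because myocardin, among the genes higher in smooth muscle cells, acts through the CArG box. They are from RefSeq, build GRCm38.p6, as letters 5′ to 3′ on the gene's strand, and capitals mark an exact CArG box or 1 with 1 inner mismatch. Myl9 and Myl6 were higher than in the other cells, and Actg1, the cytoplasmic γ-actin gene, was not (log2 1.15). The stretch of Myl9 is chr2:156775268-156775409 (plus strand), of Myl6 chr10:128493015-128493094 (minus) and of Actg1 chr11:120348541-120348620 (minus).
Myl9: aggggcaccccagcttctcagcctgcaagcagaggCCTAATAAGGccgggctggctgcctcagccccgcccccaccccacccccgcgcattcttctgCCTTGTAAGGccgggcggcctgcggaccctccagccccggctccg
Myl6: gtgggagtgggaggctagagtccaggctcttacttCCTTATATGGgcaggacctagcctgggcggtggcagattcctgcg
Actg1: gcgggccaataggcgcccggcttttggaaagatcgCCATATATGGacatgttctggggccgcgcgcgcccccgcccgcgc
In Myl9 the exact box CCTAATAAGG begins 161 bases before the RefSeq start used for the window and CCTTGTAAGG, with 1 mismatch, 99 bases before it. The window of Acta2 held CCCTATATGG and CCTTGTTTGG, each with 1 mismatch, 84 and 34 bases before its RefSeq start. That start and both boxes lie inside the span of the GENCODE gene given above. Exons were not looked up, and no longer stretch is shown. The exact boxes of Myl6 and Actg1 begin 50 and 90 bases before their RefSeq starts.

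An exact box stood in 535 of 32851 promoter windows of the table (1.63%) and in the windows of 488 of 27025 genes (1.81%), counting both strands. Of 17 contractile genes with a window, 3 held an exact box (17.6%), and of the 9 of those that were higher in smooth muscle cells, 2 did (22.2%). With 1 inner mismatch allowed, the counts were 3050 genes (11.3%) of all, 5 of the 17 (29.4%) and 3 of the 9 (33.3%). Myh11, Tagln and Actg2 were not among the windows. Only a short window around each RefSeq start was searched, so a gene without a match here may hold a box outside its window. A match is a description of the letters and not evidence that a factor binds.

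Actc1, the α-actin gene of heart muscle, was among the 10 largest folds. It ran from 592 CPM through a median of 11717 to 37410, and 3 of the 219 other cells reached the lowest member. Summed, it stood at 12830 against 134 CPM, 95.5-fold (93.4 to 97.7), with log2 differences of 12.54 within Mural1 and 5.75 within Mural2. In single members Actc1 was between 1.52% and 135% of Acta2 by CPM, with a median of 17.3% in Mural1 and 42.6% in Mural2. The actin genes Acta2, Actg2, Actc1 and Actg1 encode nearly identical proteins. How reads that match several of them were counted is not given in the sources used here, so the split of reads between them is uncertain.

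The genes that tie contractile filaments to the membrane moved with the contractile list. Of 25 genes of dense plaques and cytoskeletal anchorage 15 were higher than in the other cells and none lower (median log2 2.73), and against pericytes 15 were higher and 1 lower (median 2.34). Des, desmin of the intermediate filaments, ran from 535 through 2839 to 10143 CPM and was 16.3-fold higher than in the other cells (16.0 to 16.7). Its range overlapped that of pericytes, 30 of which reached the lowest member, and it was 4.36-fold higher than in them. Itga8, the integrin α8 gene, ran from 9.58 through 1345 to 5323 CPM and was 18.2-fold higher (17.7 to 18.8). Synpo2, which encodes an actin-bundling protein of dense bodies, stood at 1180 against 58.2 CPM (20.3-fold). Sgca, a sarcoglycan gene of the dystrophin complex, stood at 105 against 2.64 CPM (39.7-fold), and Ldb3, of a Z-disc protein, at 282 against 13.0 CPM (21.7-fold).

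Against pericytes the largest folds of that list were those of Itga8 (13.3-fold), the fibronectin receptor gene Itga5 (13.2-fold), Lims2 (11.8-fold) and Sgca (10.9-fold). Without the 3 pericytes described above, the log2 differences rose from 3.72 to 4.45 for Itga5 and from 3.45 to 5.39 for Sgca. In Mural1 alone and in Mural2 alone the log2 differences from the other cells were 7.90 and 4.23 for Sgca, 5.33 and 3.84 for Ldb3, 4.82 and 3.96 for Synpo2, and 4.75 and 3.52 for Des. Itga8 differed little between the sets, at 4.36 and 4.30. Within the sets the values against pericytes were 7.85 and 2.61 for Sgca and 4.24 and 3.26 for Lims2.

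**Figure D2:**
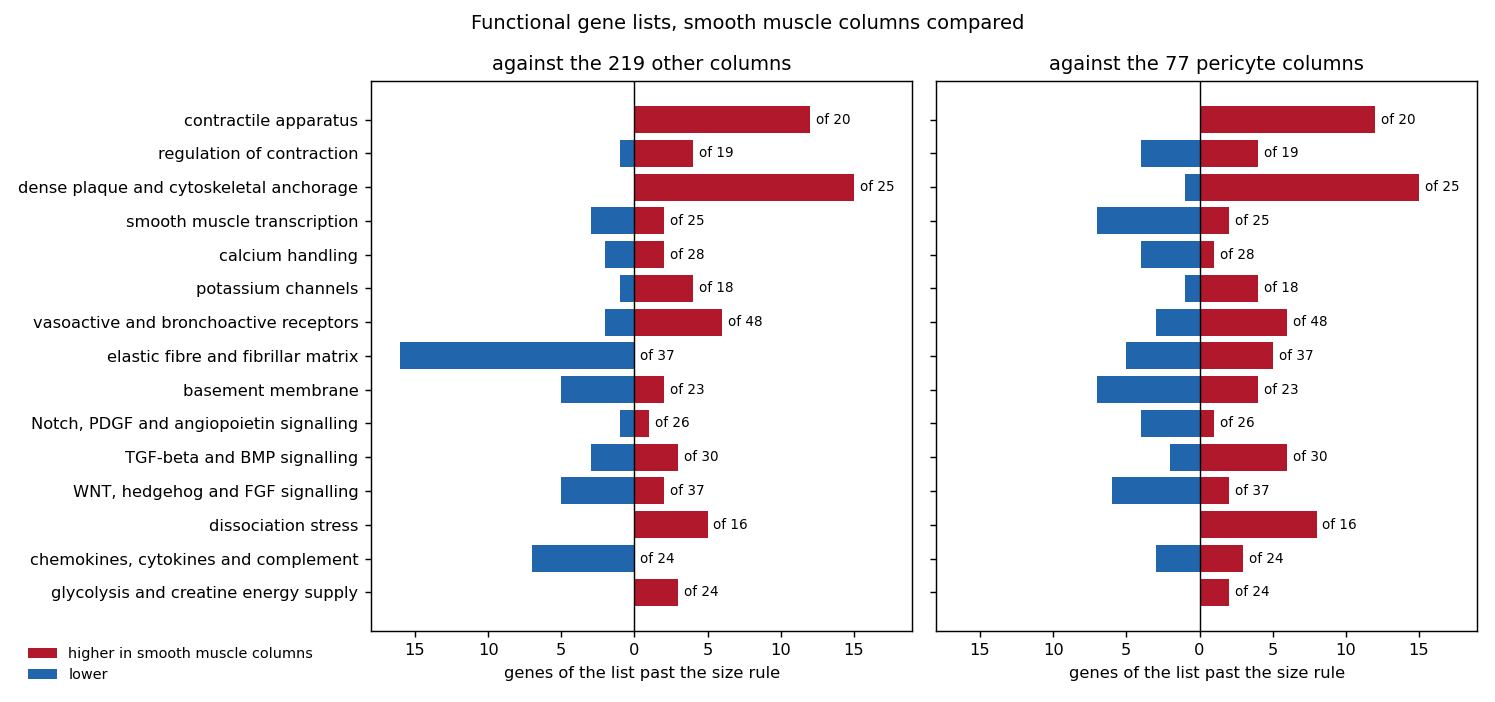
Number of genes of each functional list that were higher (red, to the right) or lower (blue, to the left) in smooth muscle columns, against the other columns and against pericytes; the number beside a bar is the size of the list. Contractile and anchorage genes lie on the higher side in both panels, and matrix genes on the lower side against the other columns.

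Transcription factors of the smooth muscle list gave 2 higher and 3 lower of 25 against the other cells (median log2 -0.45), and 2 higher and 7 lower against pericytes (-0.23). Myocd, myocardin, ran from 0 through 90.6 to 556 CPM and reached 20 CPM in 50 of 62 members, 5 of 77 pericytes and 7 of all 219 other cells. Among those pericytes were the 3 that passed the Myh11 and Cnn1 limits, at 98.9 to 246 CPM. Summed, Myocd stood at 126 against 3.90 CPM, 32.2-fold (28.1 to 36.9), with log2 differences of 9.29 within Mural1 and 4.10 within Mural2. Hey2, a Notch target gene, was 4.16-fold higher than in the other cells, though only in 28 members did it reach 20 CPM, and it did not pass within Mural2 (log2 1.64) or by the mean of single columns (1.33). Gata6, a zinc finger factor of smooth muscle and epithelium, was 21.1-fold higher than in pericytes at 137 against 6.51 CPM. Lower were the mesenchymal factor genes Meox2 (4.78 against 174 CPM in the other cells), Tcf21 (13.1 against 113 CPM) and Foxf2 (17.6 against 134 CPM). Against pericytes Foxf2 was 28.1-fold, Meox1 18.1-fold and Tcf21 14.6-fold lower. Within Mural1 and within Mural2 the log2 differences were -7.81 and -5.05 for Meox2 against the other cells, and against pericytes -3.42 and -4.71 for Meox1 and -5.52 and -3.30 for Tcf21.

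Among regulators of contraction, 3 myosin phosphatase genes and Mrvi1 were higher than in the other cells, and the cGMP genes Pde5a, Gucy1a3 and Gucy1b3 were lower than in pericytes. Of 19 genes of this list 4 were higher and 1 lower than in the other cells (median log2 0.44), and 4 were higher and 4 lower than in pericytes (-0.24). Mrvi1, which encodes the cGMP kinase substrate IRAG of the calcium store, ran from 0 through 317 to 1730 CPM and was 16.5-fold higher than in the other cells (15.6 to 17.5). The myosin phosphatase genes Ppp1r12a (733 against 97.9 CPM, 7.49-fold) and Ppp1r12b (132 against 22.6 CPM, 5.86-fold) were higher as well. Pde5a, which breaks down cGMP and is the target of sildenafil, ran from 0 through 8.03 to 626 CPM. No member reached the pericyte median of 3647 CPM, and the gene was 35.6-fold lower than in pericytes (33.9 to 37.4). Gucy1a3, a subunit gene of the nitric oxide receptor guanylate cyclase, ran from 0 through 615 to 1962 CPM and was 10.4-fold lower than in pericytes (10.2 to 10.6), whose median of 6983 CPM no member reached. Rgs2, a regulator of G protein signalling, was 7.16-fold higher than in pericytes at 742 against 104 CPM. In Mural1 alone and in Mural2 alone the log2 differences from pericytes were -6.56 and -4.72 for Pde5a, 6.98 and 2.37 for Mrvi1, and 6.22 and 2.33 for Rgs2. Without the 3 pericytes Mrvi1 moved from 3.09 to 3.86.

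**Figure D3:**
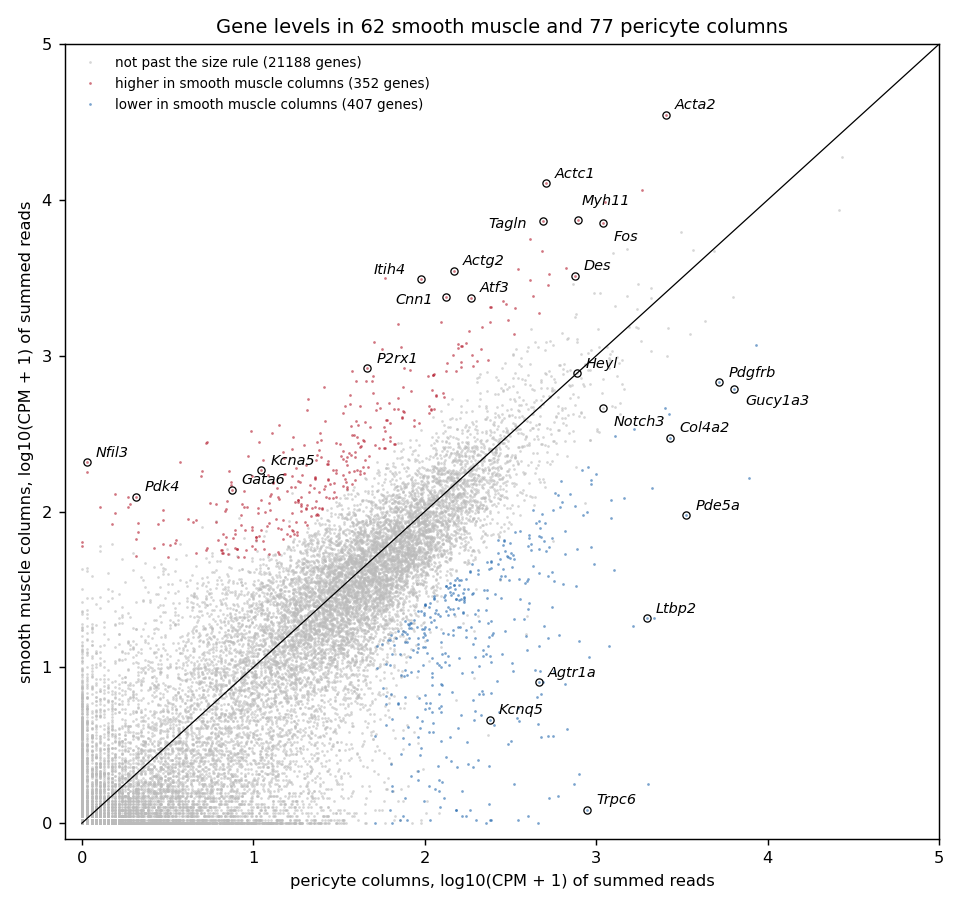
Level of each gene in smooth muscle columns (y axis) against pericyte columns (x axis), as log10(CPM + 1) of reads summed over columns. Each point is 1 gene, the line marks equal levels, and the 352 higher and 407 lower genes are coloured. Acta2, Actc1 and Tagln lie far above the line, Heyl lies on it, and Pde5a, Ltbp2 and Agtr1a lie far below it.

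Potassium channel genes, which set the resting membrane potential of muscle, had 4 higher and 1 lower of 18 in both comparisons, with medians of -0.68 and -0.01. Kcna5, the voltage-gated channel Kv1.5 (chromosome 6, 126532551 to 126535412), ran from 0 through 95.7 to 817 CPM and reached 20 CPM in 39 members, 3 pericytes and 4 of all 219 other cells. It stood at 183 against 3.29 CPM, 55.8-fold (48.3 to 64.7). Kcnmb1, the β1 subunit of the calcium-activated BK channel, was 18.4-fold higher at 386 against 21.0 CPM, and Kcnab1, a Kv β subunit, 16.2-fold at 106 against 6.53 CPM. Kcna2 was 126-fold higher than in pericytes at 107 against 0.849 CPM, yet only 21 members reached 20 CPM. Kcnq5 was lower, at 3.61 CPM against 62.2 in the other cells (17.2-fold) and 65.9-fold lower than in pericytes. Within Mural1 it did not pass against the other cells (log2 -2.51, and -5.56 within Mural2).

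The size of the potassium channel folds differed by set, as did the mixture of cells that the members were compared with. Within Mural1 and within Mural2 the log2 differences from the other cells were 11.31 and 4.54 for Kcna5, 5.72 and 3.13 for Kcnab1, and 4.87 and 3.70 for Kcnmb1. Against pericytes they were 8.68 and 3.33 for Kcna5 and 7.78 and 2.99 for Kcnab1. Leaving out the 3 pericytes moved Kcna5 from 4.18 to 6.07, Kcnab1 from 3.77 to 5.64 and Kcna2 from 6.97 to 8.87. All of these values point the same way.

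The calcium list had 2 higher and 2 lower of 28 against the other cells (median log2 -0.14), and 1 higher and 4 lower against pericytes (-0.85). In both comparisons 1 of the lower genes was Trpc6, a gene of the rule, whose call the choice of cells set. The calcium pump gene Atp2a2 of the store stood at 487 against 121 CPM in the other cells, at the edge of the size rule (4.01-fold), and did not pass by the mean of single columns (log2 1.94). Ryr2, the ryanodine receptor, stood at 50.5 against 9.64 CPM (5.24-fold), close to the limit of 50 CPM. It did not pass within Mural1 (log2 3.16), within Mural2 (1.84) or by the mean of single columns (1.86). Nor did it pass with member limits of 1000 CPM for Myh11 and 100 CPM for Cnn1 (2.27), or with the epithelial limit at 1000 CPM (2.58). The mechanosensitive channel gene Piezo2 was 8.05-fold lower, at 11.3 against 91.2 CPM, with -4.20 and -2.41 within the sets. Slc8a1, the sodium-calcium exchanger, was 7.12-fold higher than in pericytes, with log2 differences of 7.94 within Mural1 and 2.20 within Mural2, and 3.47 instead of 2.83 without the 3 pericytes. Itpr2, a receptor for inositol trisphosphate, was 9.86-fold lower than in pericytes, with -4.23 and -3.18 within the sets.

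Receptors for constrictors and dilators gave 6 higher and 2 lower of 48 against the other cells (median log2 -0.54), and 6 higher and 3 lower against pericytes (-1.09). P2rx1, the ATP-gated channel of sympathetic neuromuscular transmission, ran from 0 through 497 to 3769 CPM and reached 20 CPM in 51 members, 4 pericytes and 8 of all 219 other cells. It stood at 829 against 14.2 CPM, 58.3-fold (54.5 to 62.6). Ramp1, the partner protein of the CGRP receptor, was 18.8-fold higher at 326 against 17.4 CPM, and 37.5-fold higher than in pericytes. Adra1d, an α1-adrenergic receptor gene, was 15.8-fold higher at 142 against 8.99 CPM. The angiotensin receptor gene Agtr1a was on the other side. It had a median of 0 and reached 20 CPM in 1 member, against 50 of 77 pericytes, where its median was 184 CPM, and it was 17.6-fold lower than in the other cells and 65.9-fold lower than in pericytes. The natriuretic peptide clearance receptor gene Npr3 was 29.6-fold lower than in pericytes.

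In Mural1 alone and in Mural2 alone the log2 differences from the other cells were 12.10 and 4.59 for P2rx1, 4.70 and 4.03 for Ramp1, 4.26 and 3.66 for Adra1d, and -6.84 and -3.87 for Agtr1a. Against pericytes they were 10.89 and 3.33 for P2rx1, 9.68 and 4.26 for Ramp1, -9.06 and -5.52 for Agtr1a, and -7.31 and -4.20 for Npr3. Without the 3 pericytes, which held P2rx1 at 324 to 1086 CPM, P2rx1 moved from 4.20 to 8.29. The direction of each of these receptors was the same in both sets.

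Matrix genes stood lower against the other cells, a group that includes the 84 fibroblasts. Of 37 genes of elastic fibres and fibrillar matrix none was higher and 16 were lower (median log2 -1.64). Dcn, the decorin gene, had a median of 4.79 CPM and reached 20 CPM in 4 members, 13 pericytes and 142 of all 219 other cells, and stood at 98.6 against 16783 CPM, 170-fold lower (163 to 178). Lum (20.7 against 1893 CPM), Fbln1 (15.8 against 1374 CPM) and Mfap5 (24.6 against 829 CPM) followed. Eln, tropoelastin, did not pass against the other cells, at 2255 against 835 CPM, and was 7.91-fold higher than in pericytes. It ran from 0 through 1376 to 14948 CPM between members. Against pericytes the list split into 5 higher and 5 lower (median -0.34). Ltbp1, which holds latent TGF-β in the matrix, was 14.4-fold higher at 690 against 48.0 CPM. Its relative Ltbp2 was 99.7-fold lower, at 19.7 against 1962 CPM, and no member reached the pericyte median of 1839 CPM. Within Mural1 and within Mural2 the log2 differences were -11.84 and -6.93 for Dcn and -12.27 and -4.95 for Lum against the other cells, and 8.28 and 3.19 for Ltbp1 and -5.16 and -8.49 for Ltbp2 against pericytes. Without the 3 pericytes Ltbp1 moved from 3.85 to 4.99. Summed fibroblast markers in members, given above, were highest at 8510 CPM, and their part in these values was not tested.

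Basement membrane genes gave 2 higher and 5 lower of 23 against the other cells (median log2 -1.40), and 4 higher and 7 lower against pericytes (-1.13). Col18a1, the parent gene of endostatin, ran from 204 through 889 to 3213 CPM and was 12.9-fold higher than in the other cells (12.5 to 13.3), of which 27 reached the lowest member. The laminin gene Lamb1 (33.2 against 300.2 CPM) and the nidogen gene Nid2 (0.333 against 79.1 CPM) were lower than in the other cells, as was Vtn, vitronectin (0.50 against 146 CPM). Against pericytes Vtn was 1194-fold, Nid2 711-fold and Lamb1 19.2-fold lower, and Col4a2, a chain of type IV collagen, 9.12-fold lower at 296 against 2696 CPM. Within Mural1 Vtn did not pass against the other cells (log2 -5.74, and -9.76 within Mural2). Within the 2 sets Col18a1 stood at 4.50 and 3.14, Lamb1 at -2.61 and -3.57, and Col4a2 against pericytes at -2.69 and -3.48.

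Of the Notch, PDGF and angiopoietin genes 1 was higher and 1 lower of 26 against the other cells (median log2 -0.35), and 1 was higher and 4 lower against pericytes (-1.19). The Notch receptor gene Notch3 and the target gene Heyl did not pass in either comparison over both sets, though Heyl was higher than in the other cells within Mural1 (log2 2.20, and 1.14 within Mural2). Notch3 ran from 0 through 461 to 1339 CPM and stood at 464 CPM, against 1094 in pericytes. Heyl ran from 0 through 619 to 1988 CPM and stood at 771 CPM, against 766 in pericytes, and 33 of 62 members reached the pericyte median of 590 CPM. Pdgfrb, the gene behind the reporter, ran from 59.6 through 602 to 1954 CPM and was 7.72-fold lower than in pericytes (7.57 to 7.87), whose median no member reached. Cspg4, which encodes NG2, ran from 242 through 659 to 1961 CPM, against a pericyte median of 1151, and did not pass. Pdgfra was 48.2-fold lower than in the other cells, at 8.56 against 413 CPM. Of the ligands, Pdgfd was 35.5-fold higher than in pericytes at 57.7 against 1.63 CPM, though it did not pass within Mural1 (log2 6.16), and Pdgfa was 7.06-fold lower. Nrarp, a feedback gene of Notch, was 11.1-fold lower than in pericytes. In Mural1 alone and in Mural2 alone the values against the other cells were -9.56 and -5.02 for Pdgfra, and without the 3 pericytes Pdgfd moved from 5.15 to 6.77.

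In the TGF-β and BMP list 3 were higher and 3 lower of 30 against the other cells (median log2 -0.39), and 6 higher and 2 lower against pericytes (0.08). Id4, an inhibitor of helix-loop-helix factors, stood at 214 against 35.7 CPM in the other cells (6.01-fold), and did not pass within Mural2 (log2 1.84, and 3.68 within Mural1). Inhba, an activin subunit gene, was 5.16-fold higher at 70.2 against 13.6 CPM. The ligand gene Bmp4 was 33.4-fold lower, at 3.95 against 132 CPM, and 54-fold lower than in pericytes, with -7.78 and -4.64 within the sets against the other cells. Bmp5, 8.47-fold lower at 15.3 against 129 CPM, did not pass within Mural1 (log2 -1.76). Tgfb3 was 5.46-fold higher than in pericytes and did not pass within Mural2 (1.96). Without the 3 pericytes Id4 moved from 3.28 to 7.56.

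The WNT, hedgehog and FGF list gave 2 higher and 5 lower of 37 against the other cells (median log2 -2.95), and 2 higher and 6 lower against pericytes (-1.75). Lgr6, a receptor for R-spondins and a marker of airway smooth muscle, ran from 0 through 192 to 1437 CPM and was 11.3-fold higher than in the other cells (10.6 to 11.9), with 2.87 and 3.69 within the sets. Sfrp2, a secreted WNT antagonist, was 8.69-fold higher at 148 against 17.0 CPM. Igf1 was 278-fold lower at 1.94 against 541 CPM, and Wnt5a 90.1-fold lower at 1.00 against 90.1 CPM. Lef1, a WNT transcription factor, was 1032-fold lower from 1 read in all members, but did not pass within Mural1 (log2 -6.02). Against pericytes Wnt5a was 81.6-fold and Wnt4 36.1-fold lower. Within Mural1 Igf1 stood at -10.42 and within Mural2 at -6.80.

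Immediate early and heat shock genes, a list known to respond to tissue dissociation, gave 5 higher and none lower of 16 against the other cells (median log2 1.47), and 8 higher against pericytes (2.02). Atf3, a stress-induced factor, ran from 0 through 1664 to 9289 CPM and was 16.7-fold higher than in the other cells (16.3 to 17.1). Its median was 4.86 CPM in the members of Mural1 and 2822 CPM in those of Mural2. The fold was smaller within Mural1 (log2 2.38) than within Mural2 (4.08). Hspa1a, an inducible HSP70 gene, ran from 0 through 809 to 4198 CPM and was 10.1-fold higher (9.87 to 10.4), with 2.41 within Mural1 and 3.43 within Mural2. Dnajb1 stood at 432 against 101 CPM (4.26-fold), but its log2 difference was 0.00 within Mural1, and Nr4a1, 4.30-fold higher, did not pass within Mural2 (1.56, and 2.89 within Mural1). Against pericytes Fos was 6.48-fold higher at 7098 against 1095 CPM, with 4.65 and 2.31 within the sets, and Nr4a1 stood at 8.26 and 2.22. Atf3 moved from 3.68 to 5.47 without the 3 pericytes. How long each set spent in dissociation is not given in the sources used here.

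Chemokine, cytokine and complement genes gave none higher and 7 lower of 24 against the other cells (median log2 -3.40), and 3 higher and 3 lower against pericytes (-0.35). The complement gene C3 stood at 4.83 against 1630 CPM (337-fold lower), and C7 was 272-fold lower. Ccl11, eotaxin, was 219-fold lower, but did not pass within Mural1 (log2 -5.32). Against pericytes C4b was 25.5-fold higher at 631 against 24.7 CPM, with 8.65 and 3.74 within the sets and 5.50 instead of 4.67 without the 3 pericytes. Il34, a ligand of the macrophage growth factor receptor, was 435-fold lower at 0.278 against 121 CPM, and the cytokine gene Tslp 195-fold lower. Within the sets C3 stood at -6.62 and -10.40. Leukocyte markers reached 1000 CPM in 6 members, and their part in these values was not tested.

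Genes of glycolysis and creatine energy supply gave 3 higher and none lower of 24 against the other cells (median log2 1.17), and 2 higher against pericytes (1.14). Pdk4, which holds back pyruvate oxidation, ran from 0 through 16.3 to 1315 CPM and was 12.2-fold higher (11.2 to 13.4). Slc2a4, the insulin-responsive glucose transporter GLUT4, stood at 83.7 against 7.96 CPM (10.5-fold) and reached 20 CPM in 24 members, but did not pass within Mural1 (log2 4.04). Ckb, brain-type creatine kinase, was 4.21-fold higher at 629 against 149 CPM. It did not pass within Mural2 (1.83) or by the mean of single columns (1.84). Pdk4 was 116-fold higher than in pericytes (6.86, and 9.09 without the 3 pericytes), with 2.50 and 3.98 within the sets against the other cells.

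Beyond the lists, the largest folds against the other cells belonged to genes with few reads outside smooth muscle. Itih4, of an inter-α-trypsin inhibitor heavy chain, ran from 0 through 2530 to 10797 CPM and reached 20 CPM in 54 members and 4 other cells. It stood at 3099 against 26.2 CPM, 118-fold (113 to 125), with 14.31 within Mural1 and 5.67 within Mural2. Kcnh2, the hERG potassium channel, stood at 182 against 1.86 CPM (97.9-fold, 81.1 to 119) and reached 20 CPM in 47 members and 3 other cells. Genes best known from striated muscle were among them. Tcap, telethonin of the Z-disc, stood at 278 against 2.87 CPM (96.7-fold), Abra, an actin-binding activator of serum response factor signalling, at 153 against 1.55 CPM (98.9-fold), Sh3bgr at 317 against 3.34 CPM (94.9-fold) and Ankrd1 at 106 against 0.615 CPM (173-fold). These were not found in every member: Ankrd1 reached 20 CPM in 17, Abra in 26, Tcap in 41 and Sh3bgr in 54. Tmem215 had the largest fold, 1876-fold, but with 2 reads in the other cells (518 to 15513), and 15 members at 20 CPM. Within Mural1, Abra (log2 7.88) and Tmem215 (8.19) did not pass.

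On the lower side Fmod was 1691-fold lower at 0.833 against 1409 CPM, Cytl1 1023-fold at 2.67 against 2729 CPM and Apod 1012-fold at 1.5 against 1518 CPM. Flrt2 had no read in any member and was at least 1003-fold lower, with 3 reads over all members as the floor, and Nkain4, also without a read, at least 988-fold. Within Mural2 Fmod (log2 -8.51) and Cytl1 (-10.60) did not pass. Against pericytes genes with large folds on the higher side were Nfil3, a circadian and cytokine-regulated factor (205 against 0.0708 CPM, from 1 read in pericytes, 521 to 114696), Ankrd1 (375-fold), Tspan18 (172-fold), and Ngb, neuroglobin (165-fold). Fam162b (6299-fold, from 1 read, 1130 to 248832), Spp1, osteopontin (2587-fold), Cdk18 (no read in members, at least 1366-fold) and Nkain4 (at least 2750-fold) were among the 10 largest folds on the lower side. Spp1 rested on few pericytes, 26 of which reached 20 CPM, while Fam162b reached it in 55 of 77.

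Within the 62 smooth muscle cells, the airway and vascular lists were read gene by gene. Notch3 reached 20 CPM in 58 members, Heyl in 57, Ntrk3 in 45, Itga7 in 43, Map3k7cl in 30 and Rgs5 in 3, all genes of the vascular list. Of the airway list, Actg2 reached it in 62, Lgr6 in 45, Cdh4 in 12, Chrm2 in 2 and Hhip in none, which allows a share of up to 4.84%. Lgr6 and Notch3 were found together in 42 members. A split planned on these lists placed 3 cells on the airway side and 10 on the vascular side and left 49 unplaced, too few for a comparison. At 10 CPM it placed 1 and 11, and at 50 CPM 6 and 11. Of the vascular list, Map3k7cl (103 against 1.64 CPM, 62.6-fold), Ntrk3 (277 against 11.4 CPM, 24.2-fold) and Itga7 (166 against 27.2 CPM, 6.08-fold) were higher than in the other cells. Map3k7cl did not pass within Mural2 (log2 3.22, and 11.49 within Mural1), and Ntrk3 was 63.1-fold higher than in pericytes, with 10.25 instead of 5.98 without the 3.

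The members varied along another pair of genes, Kcna5 and Lgr6, a split chosen after the values had been seen. At 20 CPM, 13 members held Kcna5 without Lgr6, 26 held both, 19 held Lgr6 without Kcna5 and 4 held neither. Mural1 gave 2, 10, 3 and 1 of them. Median depth was alike, at 268819, 289562 and 268862 reads and 3796, 4144 and 4029 genes in the first 3 groups. Across the 62 cells Spearman's rho of Kcna5 and Lgr6 was -0.53 and that of Notch3 and Lgr6 -0.31, as descriptions of cells that share libraries. The smooth muscle marker sum did not separate them, with medians of 56698 CPM in Kcna5-only and 66133 CPM in Lgr6-only cells, and no gene of the contractile or smooth muscle lists passed the size rule between them. Of the airway list Lgr6, a gene of the split, was lower in Kcna5-only cells, but Cdh4 was higher in them. Without Mural1 Cdh4 did not pass (log2 1.87). None of the 6 genes of the vascular list passed. Of all 21947 genes 232 (1.06%) were higher in Kcna5-only and 274 (1.25%) in Lgr6-only cells, 506 (2.31%) in all.

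Kcna5-only cells held more Gpx3, an extracellular glutathione peroxidase. Its median was 1674 CPM in Kcna5-only cells, 876 in cells with both and 0 in Lgr6-only cells, and it reached 20 CPM in 12 of 13, 20 of 26 and 5 of 19. Summed, Gpx3 stood at 2931 against 175 CPM (16.8-fold, 15.7 to 17.9). The sphingosine phosphate receptor gene S1pr3 was 13.9-fold higher at 414 against 29.8 CPM, the adenylate cyclase gene Adcy3 7.44-fold at 248 against 33.4 CPM and the prostacyclin receptor gene Ptgir 6.52-fold at 74.5 against 11.4 CPM. The T-box genes Tbx2 (4.86-fold) and Tbx4 (5.20-fold) were higher too, but Tbx4 did not pass by the mean of single columns (log2 1.98) or with the split at 50 CPM (1.99). Epas1, which encodes HIF-2α, had medians of 1148, 831 and 324 CPM in the 3 groups, Notch3 of 551, 585 and 166 CPM, and the acid-sensitive potassium channel gene Kcnk3 of 391, 240 and 53.8 CPM. None of these last 3 passed, though Kcnk3 did within Mural2 (log2 2.18).

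Several matrix genes were higher in Lgr6-only cells, and a few in Kcna5-only cells. Cpe, carboxypeptidase E, had medians of 0, 634 and 2455 CPM in the 3 groups and stood at 187 against 2486 CPM (13.3-fold, 12.3 to 14.3). Of the elastic and fibrillar list 6 of 37 were higher in Lgr6-only cells, none in Kcna5-only cells, and 31 did not pass. They were Fn1, fibronectin (52.8 against 511 CPM, 9.69-fold), Ltbp1 (162 against 1321 CPM, 8.18-fold), Mfap4 (14.1-fold), Fbln5 (12.2-fold), Lox (4.97-fold) and Aspn (4.06-fold). Of 23 basement membrane genes Lamb1 was higher in Kcna5-only cells, at 122 against 0.527 CPM, though not without Mural1, and none was higher in Lgr6-only cells. The collagen gene Col16a1, named after its values were seen, was higher in Kcna5-only cells too, at 94.3 against 6.50 CPM. The gap junction gene Gja1 stood at 1.87 against 289 CPM, with medians of 0, 0 and 147 CPM. Itgb3, an integrin gene, stood at 0.268 against 123 CPM from 1 read in Kcna5-only cells, and Smoc1 at 29.2 against 289 CPM (9.89-fold). The prostacyclin synthase gene Ptgis (109 against 714 CPM, 6.53-fold) and the natriuretic peptide receptor gene Npr1 (2.41 against 209 CPM, 86.7-fold) were higher as well. Acta2, with medians of 29318, 33176 and 37068 CPM, and Myh11, at 6726 against 9170 CPM, did not pass.

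**Figure D4:**
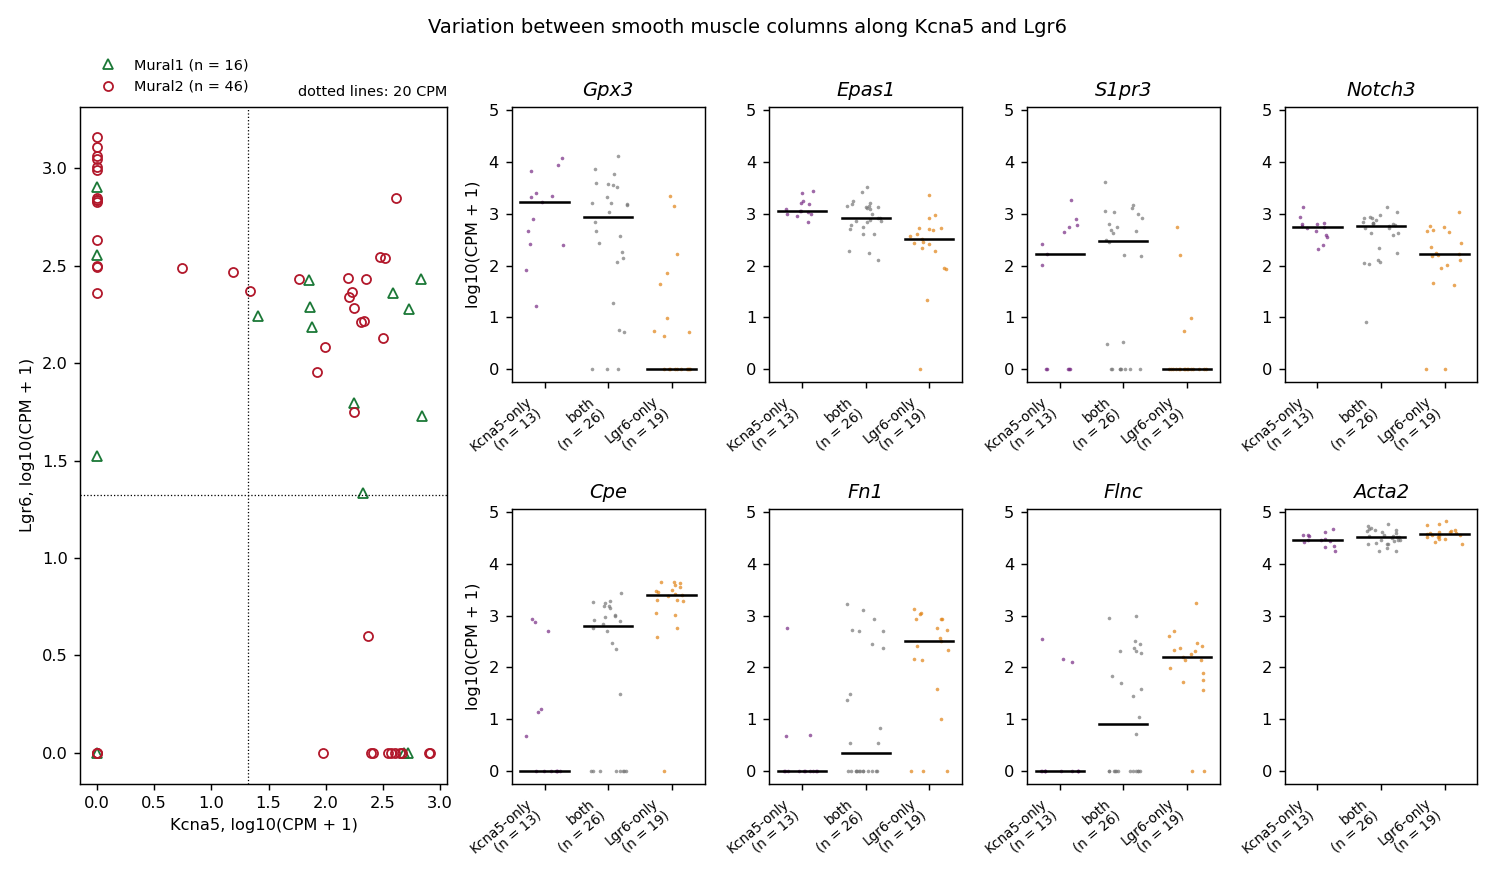
Kcna5 against Lgr6 in the 62 smooth muscle columns (left; log10(CPM + 1), dotted lines at 20 CPM) and 8 genes in the 3 groups that the pair gives (right; points are columns, bars medians). Gpx3 lies lowest and Cpe highest in the Lgr6-only columns, and Acta2 has medians between 29318 and 37068 CPM in all 3.

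The genes most like Kcna5 across the 62 cells by Spearman's rho were Epas1 (0.59), Mustn1 (0.58), Tmem176b (0.53), Adam33 (0.50) and Gpx3 (0.50), and the most unlike were Cpe (-0.63), Fn1 (-0.57) and Ltbp1 (-0.54). The genes most like Lgr6 were Cpe (0.64), Ltbp1 (0.63) and Smoc1 (0.59). Those most like Notch3 were Adam33 (0.59) and Kcnk3 (0.58), with Gja1 (-0.56) and Cpe (-0.55) at the other end. Within the 46 members of Mural2 alone the values were 0.58 for Kcna5 with Epas1, -0.59 with Cpe, 0.76 for Lgr6 with Cpe and 0.57 for Notch3 with Kcnk3. They were chosen among 4467 genes on these cells and carry no test.

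The members of Mural1 and Mural2 shared the contractile genes and differed in others. Of 21947 genes 102 (0.465%) were higher in Mural1 and 135 (0.615%) lower, 237 (1.08%) in all, and none of the contractile or smooth muscle list was among them. Acta2 had medians of 34094 CPM in Mural1 and 33429 CPM in Mural2. Among the genes lower in Mural1 were Gja1 (0.191 against 185 CPM, 1 read), Rgs4 (0.191 against 142 CPM, 1 read) and Atf3 (523 against 3099 CPM, 5.92-fold, 5.70 to 6.16). Cyr61, an immediate early matrix gene, had medians of 641 and 6179 CPM. Map3k7cl was 8.66-fold higher in Mural1 at 276 against 31.8 CPM, and Siae, a sialic acid esterase gene, 91.6-fold at 144 against 1.57 CPM. Epithelial genes were lower in Mural1 too, with 5 of 10 past the size rule, and Sftpa1 stood at 0.572 against 118 CPM. With the epithelial limit at 1000 CPM, Sftpa1 no longer passed (log2 -5.85). Summed epithelial markers had a median of 63.4 CPM in Mural1 and 333 CPM in Mural2. What the 2 sets are is not stated, so animal, plate and day cannot be told apart.

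Genes outside the rule, at 50 CPM or more, with the highest variance over mean of thinned reads between members were of several kinds. This ratio tends to grow with the level of a gene, so it does not rank variation relative to level. Acta2, for example, ran from 10112 through 33638 to 66896 CPM. Actc1, Acta2, Fos, Cyr61 and the matrix gene Thbs1 were found in most members. Thbs1, thrombospondin, ran from 0 through 1144 to 14284 CPM, with medians of 516 in Mural1 and 2011 in Mural2. Sparc ran from 287 through 1824 to 22824 CPM, but a single member held that value and the next highest stood at 6072 CPM. Il1b, a myeloid cytokine gene, was read in 4 members, with 8964 CPM in the highest, and the antigen presentation gene Cd74 reached 8031 CPM in another. The haemoglobin genes Hbb-b2+Hbb-bt were read in 1 member, at 5760 CPM.

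**Figure D5:**
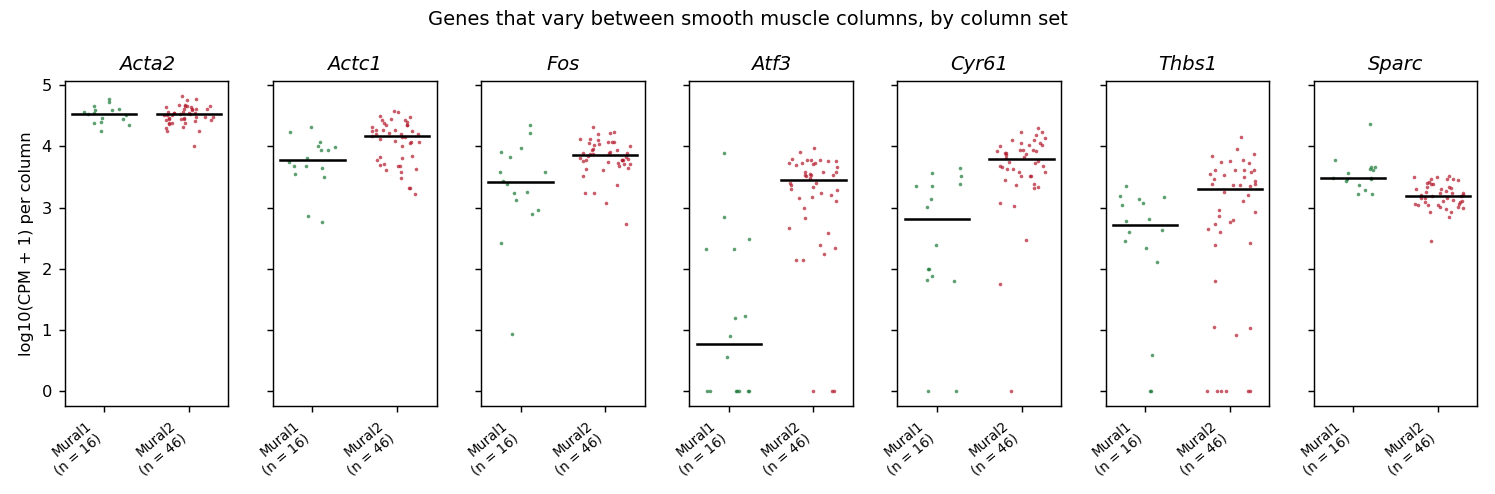
Levels of 7 genes in the 16 smooth muscle columns of Mural1 and the 46 of Mural2, as log10(CPM + 1). Points are columns and bars medians. Acta2 has medians of 34094 and 33429 CPM, while Atf3 (4.86 and 2822 CPM) and Cyr61 (641 and 6179 CPM) have low medians in Mural1.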

How the data were processed

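The deposited files are unnormalized counts of reads, genes by cells, and a second, normalized version of them (a score). STAR 2.4.2a and mm10 are named by the submitters' processing notes. Which program counted reads, with which annotation, and which cells were filtered out is not given in the sources used here. Each deposited score was the count times 500000 over the column's total, rounded (largest deviation 0.5), and was used only as an alternative. The table has 21948 rows (21947 genes and eGFP) and 1504 columns, none of which its name ties to a single labelled sample; columns were grouped by the set in their names. Columns held 100239 to 609569 reads. No 2 columns were identical, 85 well names occurred in both Mural1 and Mural2, and no doublet caller was run.

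Levels are CPM of reads summed over cells. For calls a side under 3 reads was set at 3 reads, and each side needed at least 10 cells; a log2 difference uses the same floor. Printed folds use the reads as counted, except against 0 reads, where 3 reads over the group give a lower bound. The size rule was run on counts simulated from the members' pooled profile, with no variation between cells beyond counting. That run cannot give the error rate of the rule in these cells, since they do vary. Python 3.11.15, numpy 2.4.6, pandas 2.3.3, scipy 1.17.1 and, for TMM factors only, edgeR 4.0.16 were used. Gene places are from GENCODE M21, counted from 1.

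Named genes are the 10 largest folds in each direction of a comparison, up to 4 members of each of 15 functional lists, all smooth muscle, airway and vascular markers, and the reporter genes; predicted, ribosomal protein and mitochondrial genes were counted but not named, and a few genes that the rule names are not reported here. Other genes named for the Kcna5 and Lgr6 groups, and members of a called list, were chosen after their values were seen. The members and lists were chosen with earlier results of these data known. Alternatives changed scaling, level, filter, table, column set and member limits.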

Additional observations from a re-analysis of the deposited data

How the results depend on the processing

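No paired analysis was possible because no test was made and the column names carry no replicate number. No called gene named in any comparison changed direction under the settings tried. Without any filter on level or share, 1559 genes were higher and 3186 lower than in the other cells, 1662 and 3926 against pericytes, 836 and 2726 for Mural1 against Mural2, and 1886 and 2076 for Kcna5-only against Lgr6-only cells, since that setting counts genes of very few reads. Without Mural2 the pericyte comparison gave 622 higher and 652 lower. With a level filter of 10 CPM, 245 genes were lower in Mural1 than in Mural2 and 468 lower in Kcna5-only than in Lgr6-only cells. Without Mural1, 354 genes were higher in Kcna5-only cells. For the settings that leave out a set, fewer cells were compared, and the cause was not tested. Other counts stayed within 1.5 times. Of 85 named genes past the rule against the other cells, 12 no longer passed without Mural2, 8 without Mural1 and 5 by the mean of single columns, as did 5 and 4 of 83 against pericytes without Mural2 and without Mural1. Between Mural1 and Mural2, 4 of 20 named genes no longer passed with the epithelial limit at 1000 CPM (Sftpa1, Sema3c, Tspan13 and Rbmx). Between Kcna5-only and Lgr6-only cells 4 of 66 no longer passed by the mean of single columns, 3 without Mural1, 2 with the split at 10 CPM and 3 at 50 CPM. Other member limits gave 56 to 65 members. Alternatives of the planned airway and vascular comparison were not run, since it had too few cells. Depth limits genes under about 50 CPM, and strand use in counting is not given, so reads of overlapping antisense genes cannot be told apart.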

Other observations

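Other genes of heart muscle were looked up because of Actc1, after its values had been seen. Over the 62 smooth muscle cells Tnnt2 stood at 8.50 CPM, Myl7 at 2.89 CPM, Tnni3 at 1.94 CPM, Sln at 1.72 CPM, Myh6 at 0.833 CPM and Actn2 at 0.50 CPM, and Nppa had no read. Tnnt2 reached 20 CPM in 3 members and each of the others with reads in 2. Actc1 was read in all 62.

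In Mural2, 27 of the 46 smooth muscle cells lay in plate rows M to P, which held 73 of the 233 columns of that set. Mural1 did not show this. Its row M held 2 of its 16 smooth muscle cells in 10 columns, and its rows N, O and P held 0 in 14, 9 and 11 columns. The choice of these rows was not planned, and a link to plate position was not tested.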
